A study of Mus musculus with 4 samples.

Results

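Sod1, Tardbp, App, Mapt, Prnp, Apoe and Optn are genes of inherited neurodegeneration or protein aggregation. They were taken by platform gene symbol on an Affymetrix mouse array, on which a probe set, a group of short oligonucleotides read together, gives 1 value for a transcript. The symbols of 6 of the 7 genes were found, at 21 probe sets with no second symbol, of 18193 genes named by a single symbol. No probe set in the annotation used carries the symbol Optn (optineurin, an autophagy receptor), which was not analysed here. The study hybridised 4 arrays with target from mouse total RNA, labelled as brain, hindbrain and spinal cord. The cDNA group has 2 arrays, with target amplified by a Nugen kit, and the aRNA group has 2, with antisense RNA from T7-based amplification. Each pair has an array numbered 1 and an array numbered 0, and the labels explain neither the numbers nor the strain, age, treatment or number of animals.

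Many neurodegenerative diseases can be grouped by the protein that collects in deposits. Amyloid plaques hold a peptide cut from App, tangles hold tau (the product of Mapt), prions are a misfolded form of Prnp, and inclusions of motor neuron disease hold Tardbp or, in some families, mutant Sod1. The normal proteins are made throughout the nervous system, Mapt mainly in neurons and Apoe mainly in astrocytes and, under injury, in microglia. In a bulk extract, fewer cells of a type and less RNA per cell cannot be told apart.

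Levels are given as log2(intensity + 16), and differences on that scale understate the change of dim probe sets. Probe sets differ in affinity, so a level at 1 probe set was not set against that at another. The background level of an array, the 95th percentile of 27 control probe sets for Bacillus transcripts, was 249 and 212 intensity units on cDNA arrays 1 and 0, against 126 and 123 on aRNA arrays 1 and 0. Of the 21 probe sets, 16 lay above it on all 4 arrays. The tests covered the 22519 probe sets with a mean level of at least 8.38, which kept 17 of the 21.

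Markers of nervous tissue were present. Of the listed markers found on the array, all 8 neuronal, all 8 astrocytic and all 6 oligodendrocyte genes lay above background on every array, whereas 1 of 5 genes of hindbrain and spinal cord position and 1 of 3 forebrain genes did. Neutrophil markers moved with the preparation. The 4 red cell and neutrophil genes found summed to 29064 and 7962 intensity units on cDNA arrays 1 and 0. On aRNA arrays 1 and 0 they summed to 399 and 506. Of the 4, 0 lay above background on all arrays. S100a8, S100a9 and Ngp, of neutrophils, were at least 44.6-fold, 51.1-fold and 7.85-fold higher on cDNA. Hba-a1, the only red cell gene found, was not tested. Most microglial markers moved with the number: 8 of 10 were above background on all arrays, and their summed intensity was 121607 and 133764 on the cDNA and aRNA arrays numbered 1 against 61573 and 25501 on those numbered 0. Within cDNA, Cx3cr1 went the other way (array 1 minus array 0 −0.68, against 1.74 within aRNA) and Csf1r barely differed (0.10, against 2.63). The other microglial markers tested were higher on array 1 in both preparations. The aRNA array numbered 0 stood apart from the other 3 in sex-linked transcripts. Xist, an RNA of female cells, read 12.51 and 11.94 on cDNA arrays 1 and 0, against 15.44 and 8.55 on aRNA arrays 1 and 0. Eif2s3y, a Y-linked gene, read 4.75 and 7.92 on cDNA arrays 1 and 0, against 6.79 and 13.12 on aRNA arrays 1 and 0.

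**Figure D1:**
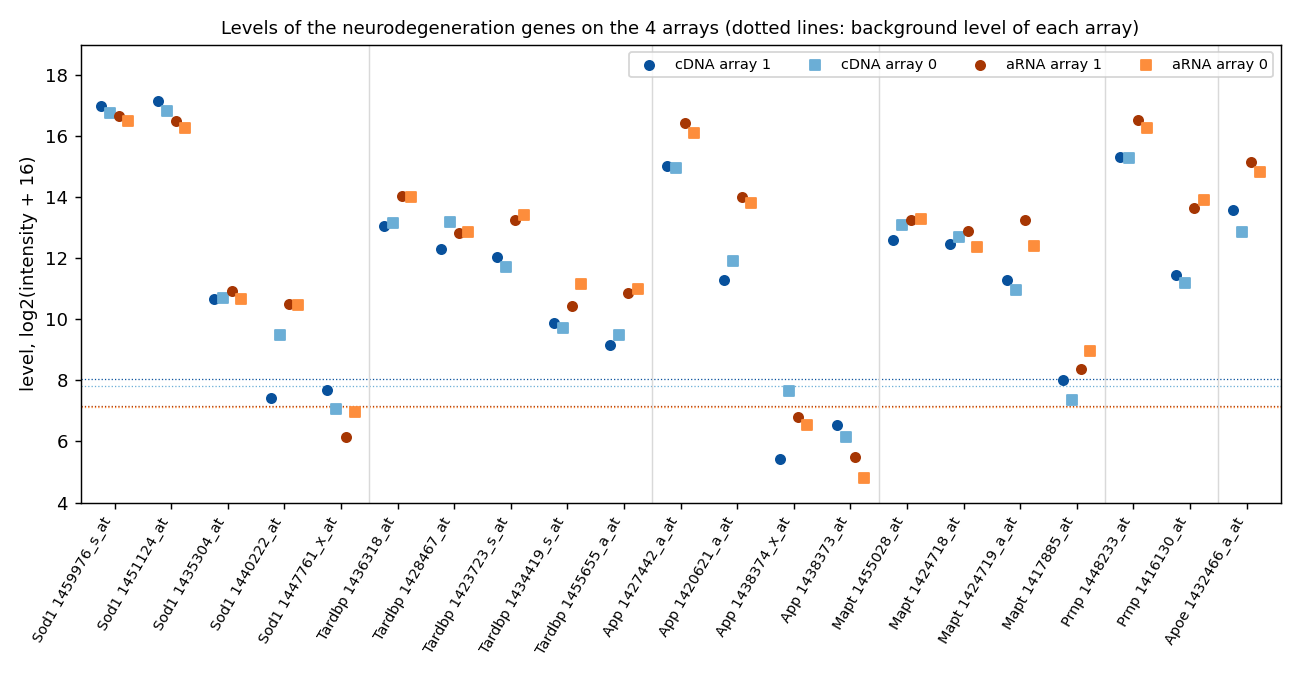
Level of each neurodegeneration gene probe set (x axis, grouped by gene) on the 4 arrays, as log2(intensity + 16) on the y axis. Points are single arrays and dotted lines are the background level of each array. The 2 Prnp, the upper 2 App and the Apoe probe sets have both cDNA points below both aRNA points, and 3 dim probe sets of Sod1 and App lie under background throughout.

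Between the preparations, most of these genes read lower with cDNA target. The labels do not say whether the preparations shared an RNA, and aRNA array 0 differed from both cDNA arrays in sex-linked transcripts. A difference of preparation therefore cannot be told apart from one of RNA source. App, Prnp and Apoe were lower at every probe set tested, by 2.13-fold to 5.51-fold. Tardbp was lower at 3 of 5 probe sets and Mapt at 1 of 3. Sod1 was the exception, with 1 probe set higher by 1.51-fold, 1 lower and 2 not called. In all, 10 of the 17 probe sets tested were called lower and 1 higher on cDNA (limma adjusted p under 0.05), against 22.9% and 20.2% of all probe sets tested and 43.2% called either way. Without aRNA array 0, 8 were called lower and none higher. Of the 13 above the 75th percentile of mean level, 8 were called lower and 1 higher when probe sets above it were tested alone. Of all probe sets above it, 31.6% were called lower, and 44.8% of the calls among them were higher. The median difference was −1.09 over the 17, beside −0.11 over all probe sets tested.

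The starts of 5 of the 6 measured genes are in the RefSeq promoter table of build GRCm38.p6. The windows of Sod1 and of the 3 genes that were lower at every probe set tested are shown, 250 bases up to the start, 5′ to 3′ on the gene's strand. They lie at chr16:90220512-90220761 (Sod1, plus strand), chr16:85173708-85173957 (App, minus strand), chr2:131909678-131909927 (Prnp, plus strand) and chr7:19699189-19699438 (Apoe, minus strand, the first of 3 starts listed). Capitals mark GGGCGG, the core of the GC box that Sp1 binds, and TATAAA, the TATA box, on either strand.
Sod1: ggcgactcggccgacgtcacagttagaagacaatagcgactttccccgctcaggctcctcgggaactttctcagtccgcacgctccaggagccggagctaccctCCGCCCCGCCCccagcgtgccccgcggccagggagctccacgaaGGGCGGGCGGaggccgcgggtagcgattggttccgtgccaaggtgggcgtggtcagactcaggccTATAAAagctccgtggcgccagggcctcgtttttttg
App: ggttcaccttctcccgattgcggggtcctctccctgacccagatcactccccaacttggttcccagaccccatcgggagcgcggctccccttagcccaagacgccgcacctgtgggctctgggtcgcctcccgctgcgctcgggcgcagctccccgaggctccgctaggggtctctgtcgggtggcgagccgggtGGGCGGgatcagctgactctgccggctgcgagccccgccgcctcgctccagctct
Prnp: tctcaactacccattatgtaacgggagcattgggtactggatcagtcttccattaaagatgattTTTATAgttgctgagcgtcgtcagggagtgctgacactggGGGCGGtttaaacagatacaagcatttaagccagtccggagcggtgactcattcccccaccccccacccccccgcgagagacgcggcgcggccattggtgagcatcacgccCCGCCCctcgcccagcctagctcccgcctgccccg
Apoe: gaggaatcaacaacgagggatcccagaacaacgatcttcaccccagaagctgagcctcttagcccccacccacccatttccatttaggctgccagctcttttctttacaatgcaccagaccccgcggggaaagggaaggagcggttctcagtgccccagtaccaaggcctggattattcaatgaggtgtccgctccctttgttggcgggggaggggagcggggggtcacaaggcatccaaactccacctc

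GGGCGG matched 4 times in the Sod1 window, as 2 pairs that overlap, once in that of App, 2 times in that of Prnp and in that of Apoe not at all. The Tardbp window, not shown, held 3 matches. On either strand, 32.7% of the 32851 windows in the table hold this motif. TATAAA lies 37 bases before the Sod1 start and, on the opposite strand, 186 bases before the Prnp start, and 12.4% of windows hold it. The GC content was 66.4% for Sod1, 63.6% for Tardbp, 70.8% for App, 58.8% for Prnp and 57.2% for Apoe, beside a median of 52.4% over all windows.

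Sod1 encodes the copper-zinc superoxide dismutase that clears superoxide from the cytosol. Its brightest probe set, 1459976_s_at, read 16.99 and 16.75 on cDNA arrays 1 and 0, against 16.67 and 16.50 on aRNA arrays 1 and 0. Both cDNA arrays were above both aRNA arrays, but the difference of 0.28 was not called (95% interval −0.09 to 0.66, limma adjusted p = 0.2). At 1451124_at the levels were 17.15 and 16.81 on cDNA arrays 1 and 0, against 16.50 and 16.27 on aRNA arrays 1 and 0. This probe set was called higher on cDNA, by 0.59 ± 0.18 (SE, limma adjusted p = 0.0263). Leaving out cDNA array 1 (0.43, adjusted p = 0.181) or aRNA array 0 (0.48, adjusted p = 0.101) ended the call, as did median centring of the arrays (0.45, adjusted p = 0.0504).

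The other Sod1 probe sets gave other pictures. At 1435304_at the 4 arrays overlapped, with 10.68 and 10.70 on cDNA and 10.94 and 10.66 on aRNA, and the difference was −0.11 (95% interval −0.88 to 0.66). At 1440222_at the levels were 7.43 and 9.48 on cDNA arrays 1 and 0, against 10.49 and 10.48 on aRNA arrays 1 and 0. Array 1 minus array 0 was −2.05 within cDNA, and cDNA array 1 was under background, so 1 of 2 cDNA arrays measured the probe set. It was called lower on cDNA by −2.03 ± 0.65 (SE, limma adjusted p = 0.0324), or 3.29-fold lower with the dim array raised to the background level. Leaving out cDNA array 1 reduced the difference to −1.0 and ended the call (adjusted p = 0.0892), while leaving out cDNA array 0 gave −3.05 (adjusted p = 0.00178). Without aRNA array 0 (−2.03, adjusted p = 0.0939) or aRNA array 1 (−2.02, adjusted p = 0.0922) the size was about the same and the call was lost. The fifth, 1447761_x_at, lay under background on all arrays, between 6.15 and 7.68. The 4 Sod1 probe sets tested thus gave 1 call each way.

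Tardbp encodes TDP-43, a nuclear RNA-binding protein that acts in splicing and can hold its own mRNA in check. At 1436318_at, its brightest probe set, the levels were 13.07 and 13.15 on cDNA arrays 1 and 0, against 14.05 and 13.99 on aRNA arrays 1 and 0. The arrays of each preparation lay within 0.08 of each other, and the groups did not overlap. The difference was −0.92 ± 0.22 (SE, 1.89-fold lower on cDNA, limma adjusted p = 0.00963). At 1423723_s_at the levels were 12.06 and 11.70 on cDNA and 13.24 and 13.40 on aRNA, again without overlap, and the difference was −1.44 ± 0.27 (SE, limma adjusted p = 0.00273).

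Of the other 3 Tardbp probe sets, 1455655_a_at was called lower on cDNA by −1.60 ± 0.38 (SE, limma adjusted p = 0.00934). Its levels were 9.17 and 9.50 on cDNA and 10.88 and 10.98 on aRNA, and the call was lost without aRNA array 0 (adjusted p = 0.0671). At 1434419_s_at both cDNA arrays (9.88 and 9.71) were below both aRNA arrays (10.43 and 11.16), but the difference, with a 95% interval of −1.91 to −0.09, was not called (adjusted p = 0.0735). It was called after median centring of the arrays (adjusted p = 0.0444). At 1428467_at the cDNA arrays read 12.32 and 13.19, either side of the aRNA arrays at 12.84 and 12.85, and the difference was −0.09 (95% interval −0.82 to 0.63).

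App encodes the amyloid precursor protein, a membrane protein that secretases cut. Its probe set 1427442_a_at read 15.04 and 14.96 on cDNA arrays 1 and 0, against 16.44 and 16.11 on aRNA arrays 1 and 0. The cDNA arrays were alike and lay below both aRNA arrays, a difference of −1.27 ± 0.19 (SE, 2.42-fold lower on cDNA, limma adjusted p = 0.000911). The probe set 1420621_a_at gave a larger estimate in the same direction. It read 11.27 and 11.92 on cDNA and 13.99 and 13.82 on aRNA, a difference of −2.31 ± 0.29 (SE, 4.95-fold lower, limma adjusted p = 0.000413). The remaining App probe sets, 1438374_x_at and 1438373_at, were under background on all 4 arrays, between 4.81 and 7.66, and no fold was taken from them.

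Mapt encodes tau, which binds microtubules in axons. At 1455028_at its levels were 12.62 and 13.08 on cDNA arrays 1 and 0, against 13.25 and 13.28 on aRNA arrays 1 and 0. The cDNA arrays were lower, by −0.42 ± 0.26 (SE), which was not called (limma adjusted p = 0.225). At 1424718_at the groups overlapped (12.48 and 12.71 on cDNA, 12.90 and 12.38 on aRNA), with a difference of −0.05 (95% interval −0.69 to 0.60). In contrast, 1424719_a_at read 11.29 and 10.97 on cDNA and 13.25 and 12.39 on aRNA and was called lower, by −1.69 ± 0.35 (SE, 3.24-fold, limma adjusted p = 0.00468). The dim probe set 1417885_at was not tested. It lay under background on both cDNA arrays (8.02 and 7.36) and above it on both aRNA arrays (8.37 and 8.95), at least 1.64-fold lower on cDNA.

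Prnp encodes the cellular prion protein, held at the surface of neurons and glia by a lipid anchor. At 1448233_at it read 15.33 and 15.30 on cDNA arrays 1 and 0, against 16.54 and 16.27 on aRNA arrays 1 and 0. The cDNA arrays differed from each other by 0.03 and lay below the aRNA arrays, by −1.09 ± 0.18 (SE, 2.13-fold lower, limma adjusted p = 0.00151). At 1416130_at the levels were 11.45 and 11.18 on cDNA and 13.64 and 13.92 on aRNA. This difference, −2.46 ± 0.27 (SE, 5.51-fold lower, limma adjusted p = 0.000203), was the largest among the 17 probe sets tested.

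Apoe encodes apolipoprotein E, the main lipid carrier of the brain. Its only probe set, 1432466_a_at, read 13.59 and 12.85 on cDNA arrays 1 and 0, against 15.15 and 14.82 on aRNA arrays 1 and 0. The groups did not overlap, and the difference was −1.77 ± 0.28 (SE, 3.4-fold lower on cDNA, limma adjusted p = 0.00131). It was called in each of the 12 other settings tried, between −2.14 and −1.40. Astrocytic markers did not share a direction: 2 of 8 were called higher and 2 lower on cDNA, with a median of 0.21.

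**Figure D2:**
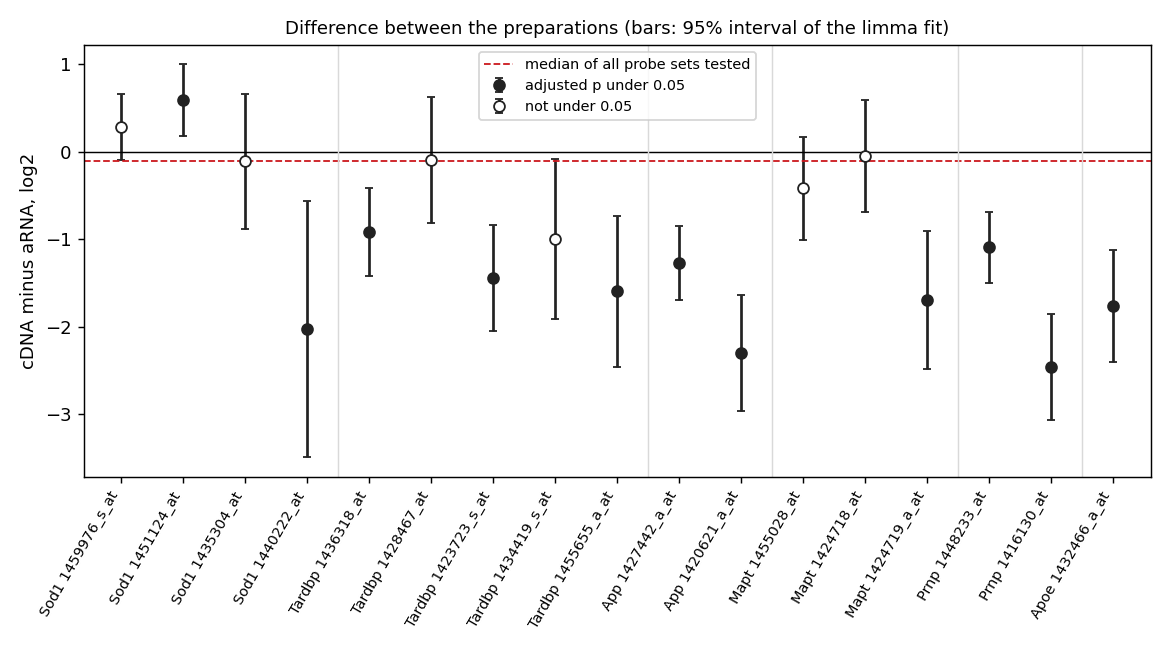
Difference between cDNA and aRNA arrays (y axis, cDNA minus aRNA, log2) at the 17 neurodegeneration gene probe sets tested (x axis). Points are fitted differences, filled where the adjusted p is under 0.05, and bars are 95% intervals, with the median of all probe sets tested as a dashed line. The filled points lie below 0 except Sod1 1451124_at at 0.59, and Prnp 1416130_at is the lowest at −2.46.

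In App and Prnp, both tested probe sets lay below 0 in every setting tried. In Tardbp and Mapt all tested estimates lay below 0 as reported, but the lowest in size changed sign with the arrays used. Tardbp 1428467_at gave −0.09, and 0.35 without cDNA array 1. Mapt 1424718_at gave −0.05, and 0.07 without cDNA array 1 or 0.21 without aRNA array 1. In Sod1 the estimates lay on both sides of 0. The spread of the estimates within a gene was 2.62 for Sod1, 1.51 for Tardbp, 1.03 for App, 1.65 for Mapt and 1.37 for Prnp. That of Sod1 includes 1440222_at, which lay under background on cDNA array 1. Each spread is the highest minus the lowest of 2 to 5 estimates and grows with their number. The difference between 2 arrays of a preparation is another measure, so the 2 are not like for like. Its median over the 17 probe sets was 0.32 for cDNA and 0.22 for aRNA (0.37 and 0.33 over all probe sets tested). Both cDNA arrays lay below both aRNA arrays at 12 of the 17 and above them at 2, against 39.7% and 34.1% of all probe sets tested.

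The arrays numbered 1 and 0 gave no call among these genes. None of the 17 probe sets passed the threshold (limma with preparation as a covariate, 2 at an unadjusted p under 0.05), and 0.0622% of all probe sets did. At an unadjusted p under 0.05 the share over all probe sets was 5.86%. The estimates lay between −1.02 and 0.59 with a median of 0.10. Array 1 was higher than array 0 in both preparations at 6 probe sets, lower in both at 3 and in opposite directions at 8.

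Apoe had the lowest unadjusted p of the 17. It was higher on array 1 by 0.74 within cDNA and by 0.34 within aRNA. The estimate was 0.54 (95% interval 0.05 to 1.02, limma adjusted p = 0.828). Of the 8 microglial markers tested, 3 were called higher on the arrays numbered 1, with a median of 1.75 over the 8. Of the 8 astrocytic markers none was called (limma, 4 at an unadjusted p under 0.05). The median over the 8 was 0.31, with estimates from 0.008 at Aldh1l1 to 3.20 at Gfap. For Gfap array 1 minus array 0 was 1.14 within cDNA and 5.27 within aRNA. The part of either set of markers in the Apoe estimate was not tested. Sod1 1451124_at was higher on array 1 by 0.34 within cDNA and 0.22 within aRNA (limma adjusted p = 0.846). At 1459976_s_at these were 0.25 and 0.17 (limma adjusted p = 0.871).

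For the brightest probe sets of the other genes the intervals of the number estimate all held 0. For Mapt 1455028_at array 1 minus array 0 was −0.47 within cDNA and −0.03 within aRNA (95% interval of the estimate −0.84 to 0.34). For App 1427442_a_at it was 0.08 and 0.33 (−0.15 to 0.56), and for Prnp 1448233_at 0.03 and 0.27 (−0.18 to 0.49). Tardbp 1436318_at gave −0.08 and 0.06 (−0.53 to 0.51).

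**Figure D3:**
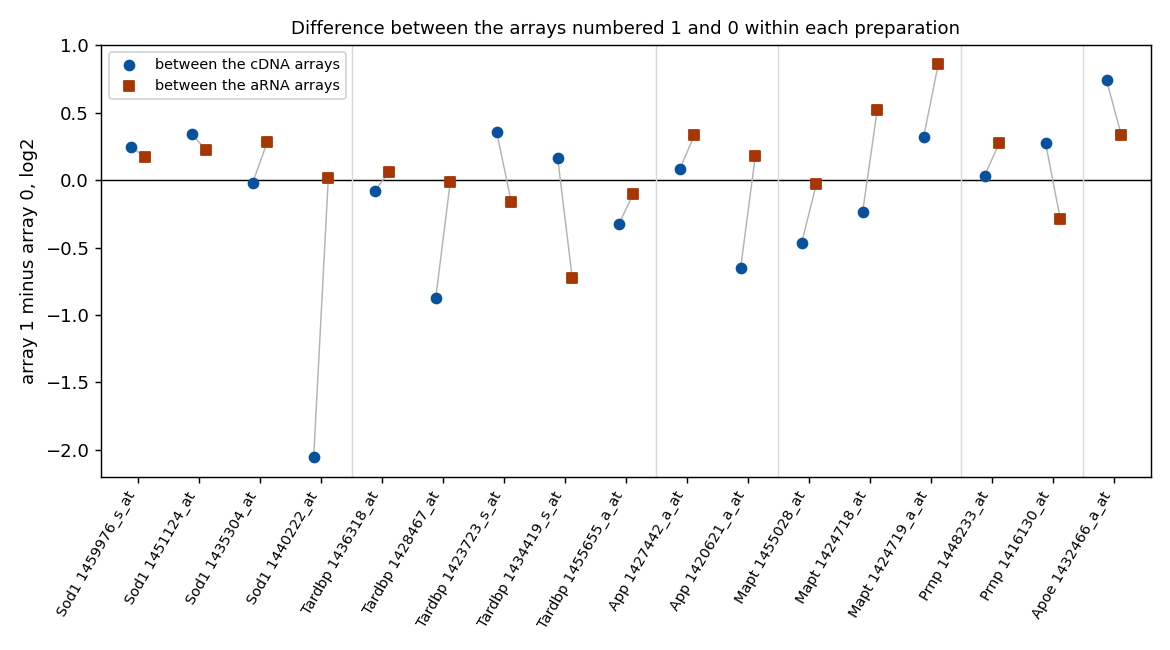
Difference between array 1 and array 0 (y axis, log2) within the cDNA pair (circles) and within the aRNA pair (squares) at the 17 neurodegeneration gene probe sets tested (x axis), with lines joining the values of a probe set. Most points lie within 0.88 of 0, and Sod1 1440222_at between the cDNA arrays, at −2.05, stands apart.

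With 1 probe set per gene, the one with the highest mean, Tardbp, App, Prnp and Apoe were called lower on cDNA and Sod1 and Mapt were not called. Of all 11945 genes tested in this way, 22.9% were called lower and 21.9% higher. Other genes of these diseases were called in both directions. Of 59 tested, 19 were lower and 13 higher, with a median of −0.22 beside −0.06 over all genes.

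Of the 20 genes of motor neuron disease and frontotemporal dementia tested, 8 were lower and 5 higher on cDNA (median −0.35). Tbk1, the kinase that phosphorylates optineurin, differed by −1.99 and the lipid phosphatase gene Fig4 by −1.74, while Atxn2, an RNA-binding ataxin, differed by 2.38. Grn (progranulin) differed by −2.16, but was not called without cDNA array 0 (adjusted p = 0.0793) or aRNA array 1 (−0.99, adjusted p = 0.0533). Of 19 genes of Alzheimer disease and amyloid processing, 6 were lower and 4 higher (median −0.17). The γ-secretase subunit genes Psen2 and Psenen were lower, by −3.35 and −1.27, and the kinase gene Ptk2b (2.89) and the App-binding adaptor gene Apba1 (1.30) higher. Leaving out cDNA array 0 (adjusted p = 0.0514) or aRNA array 0 (0.0786) ended the Apba1 call.

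Of 13 Parkinson disease genes, 5 were lower and 1 higher (median −0.42). The kinase gene Lrrk2 differed by −2.56, the synuclein gene Sncb by −1.37, Vps35 of the retromer by −0.95 and the kinase gene Gak by 1.17. Without aRNA array 0, Sncb (adjusted p = 0.0576), Vps35 (0.066) and Gak (0.0682) were not called, nor were Vps35 (0.0518) and Gak (0.0548) without cDNA array 0. Of 7 polyglutamine disease genes, 3 were higher, none lower and 4 not called (median 0.70): the calcium channel gene Cacna1a (3.58), Atn1 (2.61) and Atxn3 (1.97). Of 22 paralogs and partners of the 7 genes, 7 were higher and 5 lower (median −0.21). Sod2, the mitochondrial counterpart of Sod1, differed by −1.94, the tau kinase gene Gsk3b by 2.75, Cdk5r1, an activator of another tau kinase, by −2.07 and Calcoco1 by 3.25. Each named gene had a limma adjusted p of at most 0.0204.

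**Figure D4:**
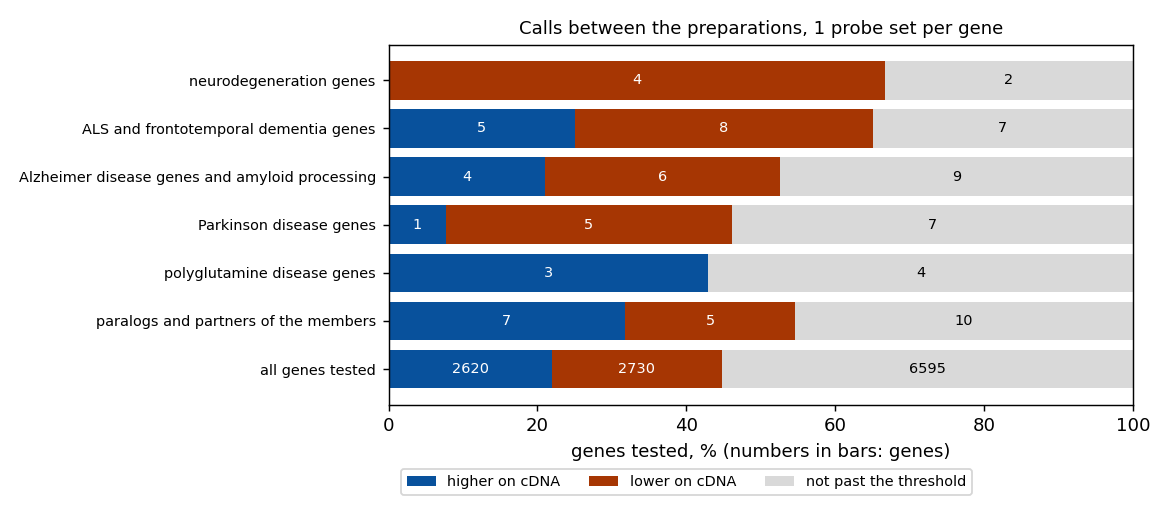
Share of genes tested (x axis, percent) called higher on cDNA, called lower on cDNA or not past the threshold, with 1 probe set per gene, for the neurodegeneration genes, the other disease gene lists and all genes. Numbers in the bars are genes. Among the neurodegeneration genes 4 are lower and 2 not called, and the polyglutamine list has 3 higher and none lower.

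Between the numbers, none of the 59 other disease genes (limma, 3 at an unadjusted p under 0.05) and none of the 22 paralogs and partners (1 at an unadjusted p under 0.05) was called, and 0.0837% of all genes were. With quantile normalization Grn was called higher on the arrays numbered 1 (adjusted p = 0.0166).

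Genes with a pattern like that of each brightest probe set were found by the root mean square difference of centred levels over the 4 arrays. For Prnp these were Zbtb2 (0.012) and Hint1 (0.024), for App Cox7a2l (0.020) and Psmc2 (0.027), and for Apoe Tnik (0.028) and Krt42 (0.041). For Tardbp they were Pcdhb7 (0.017) and Cnep1r1 (0.018), for Sod1 Catsper2 (0.016) and H13 (0.018), and for Mapt Srsf11 (0.026) and Klc4 (0.027). With 4 arrays many genes come close: of 11939 compared, between 15 (Apoe) and 162 (Tardbp) lay within 0.1.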

How the data were processed

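The authors deposited linear intensity values, 1 for each probe set on each array. The software that made them was not given in the sources. Their 2% trimmed mean was 2500.02 on each array, so they had been scaled to a common mean and were kept as they stand. A difference in total signal can therefore not be seen, and precision is limited by having 2 arrays per preparation. The labels do not say whether arrays came from separate animals, so p-values measure only the spread between these arrays. Between the aRNA arrays that spread includes a difference in sex-linked transcripts, and within both preparations it includes one in microglial markers. Whether the rest of the spread between the cDNA arrays is technical was not tested. An exact permutation test of 2 arrays against 2 cannot go below p = 0.333 (two-sided) and was not run.

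Gene symbols came from the platform annotation, which lists 1 symbol for 34945 probe sets. A RefSeq gene table gave the current symbol, changed or not, for 34741 of them. The 7 genes were taken by the platform symbol. The 64 control probe sets were left out. Values as log2(intensity + 16) were tested with limma 3.58.1 in R 4.3.3 (lmFit, then eBayes with a trend). Adjustment was by Benjamini-Hochberg over the 22519 probe sets at or above the median level, with a threshold of 0.05. Preparations were compared without a block, and numbers with preparation as a covariate. The fit was tested on simulated data. The numbers are shared by the preparations, but the labels do not say that they pair the arrays, so they were not taken as pairs. The deviations of same-numbered arrays correlated at 0.041 over the probe sets tested. That value does not decide whether they are pairs, because differences shared by few genes hardly move it. Alternatives changed the pseudocount, filter, centring, trend, arrays used and, for the disease lists, the choice of probe set. The genes, lists and tests were chosen with earlier results of these data known. Named genes are all probe sets of the 7 symbols, up to 4 called genes per list of disease genes or partners with the largest difference, every such gene called between the numbers, and the 2 genes closest in pattern to each gene's brightest probe set. Xist, Eif2s3y, the single marker genes named and the genes under other observations fall outside that rule and were chosen after their values were seen. Disease and marker lists used 1 probe set per gene, the brightest. Promoter windows came from RefSeq (GRCm38.p6). Figures were drawn with matplotlib 3.10.9.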

Additional observations from a re-analysis of the deposited data

Results flagged for a closer look

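At 8 of the 17 probe sets tested, the difference between array 1 and array 0 had opposite signs in the 2 preparations. With 1 array of each number per preparation the difference between these differences was not tested. As the gap of cDNA minus aRNA it was −2.07 at Sod1 1440222_at, where cDNA array 1 lay under background, and −0.30 at Sod1 1435304_at. For Tardbp it was −0.14 at 1436318_at, 0.52 at 1423723_s_at and 0.89 at 1434419_s_at. App 1420621_a_at gave −0.83, Mapt 1424718_at −0.76 and Prnp 1416130_at 0.56.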

How the results depend on the processing

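Between the preparations, 8 to 11 neurodegeneration gene probe sets were called over all alternatives, against 11 as reported. With each array centred on its median 11 were lower and none higher. Centring moved the median difference of all probe sets tested to −0.25, against −0.11 as reported. With the array number as a replicate block 11 were called, and no call among these probe sets changed. Without an intensity trend, or with no filter on dim probe sets, 9 were called and neither Sod1 1451124_at nor Sod1 1440222_at was. Refitting the 17 probe sets one setting at a time lost a call in 11 cases, gained one in 1 and changed the sign of uncalled differences in 5. Leaving out 1 array at a time, they ranged from −0.25 to 0.033 at Sod1 1435304_at, −0.53 to 0.35 at Tardbp 1428467_at and −0.31 to 0.21 at Mapt 1424718_at, which gave 0.0095 with quantile normalization. Without cDNA array 1 the last gave 0.073. The count over all probe sets was 6454 with the filter at the 75th percentile, which tests fewer, against 9722. Without a trend the Grn (adjusted p = 0.0742) and Vps35 (0.0677) calls were lost. Between the numbers, the 0 neurodegeneration gene calls stayed at 0 in each alternative run, with 0 to 2 at an unadjusted p under 0.05. Over all probe sets, the 14 calls became 9 with a pseudocount of 64, 28 with no filter, 8 with centring, 55 with quantile normalization, and 0 without a trend (1101 at an unadjusted p under 0.05) or without the preparation term (47). With quantile normalization 1 other disease gene was called, Grn, and 3 uncalled differences changed sign, to −5.1e-05 at Sod1 1459976_s_at, 0.0041 at Tardbp 1436318_at and 0.032 at Prnp 1416130_at. The cause of these changes was not tested. Leaving out an array leaves no residual degree of freedom for the numbers, so only the differences within a preparation remain, as given above. Signal over background limits the sizes at the 5 of 21 probe sets that lay under background on at least 1 array.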

Other observations

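Between arrays 1 and 0, 4 of the 81 other genes of the disease and partner lists (4.94%) had an unadjusted p under 0.05, beside 6.02% of all genes, and none was called. They were chosen by that p after their values were seen, which favours a shared direction in both preparations. Grn, a lysosomal glycoprotein gene, was higher on array 1 by 0.52 within cDNA and 2.34 within aRNA. Tmem106b, a lysosomal membrane protein gene, was lower, with −0.60 and −0.91. Aplp1, a paralog of App, gave 0.27 and 0.48, and Ewsr1, an RNA-binding protein gene, 0.25 and 0.46. The limma adjusted p lay between 0.533 and 0.852.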
